A study of Mus musculus with 6 samples.

Results

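Calb1, Necab1 and Car8 were taken by name from the 53546 gene features counted in each of 6 mouse RNA libraries, and all 3 were found and passed the filter on low counts, which left 12646 features for testing. The libraries, all of strain C57BL/6, fall into 3 controls and 3 from spinal cord injury, by their group label. The tissue field names spinal cord and the disc between vertebrae together, the RNA protocol names the disc, and the series text speaks of retina from 21-day-old mice. No sex, time after injury or injury method is stated, and nothing ties a library to an animal. The p-values here therefore reflect library-to-library spread alone, and that spread could be technical. Library totals ran from 2385703 to 3921627 counts.

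Controls 1 and 2 stood apart from control 3 and from the 3 injury libraries. Their summed kidney proximal tubule and collecting duct markers were high and their summed neuron markers low, which goes against the labelled tissue. The labels do not settle which tissue gave these 2 libraries, so where they are set against injury, injury and tissue of origin cannot be told apart. Each library is therefore given singly, and each group result is followed by its value with these controls, or control 3, left out. Most feature names in these tables do not sit on the exons of the gene they name, as judged against the mouse build GRCm38 (1755 of 53546 features, 3.28%, had at least 90% of their exonic bases on their own gene and are called name-stable). The 3 genes were name-stable, with 100% of their exonic bases on their own GRCm38 exons.

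Calcium ions carry signals in most cells, and buffer proteins with EF-hands, helix-loop-helix units that hold a calcium ion in a short acidic loop, shape how far and how long each signal spreads. Calb1 encodes calbindin, a fast calcium buffer of many neurons that is also abundant in the distal convoluted and connecting tubule of the kidney, where it carries calcium across the cell. Necab1 encodes an EF-hand protein found chiefly in neurons. Car8 encodes a carbonic anhydrase-related protein without the enzyme activity of that family, which binds the inositol trisphosphate receptor, the calcium release channel of the endoplasmic reticulum, and is best known from cerebellar Purkinje cells.

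All 3 genes are protein-coding and lie on chromosome 4, and their starts and ends in the files, which name no build, equal those in GRCm38. Calb1 (ENSMUSG00000028222) runs from 15881264 to 15908064 on the plus strand, with 4846 exonic bases in 10 merged exons. Necab1 (ENSMUSG00000040536) runs from 14952245 to 15149794 on the minus strand, with 5237 exonic bases in 14 merged exons. Its exons overlap those of the predicted gene Gm11837, and read pairs that fall on both were left out of the counts. Car8 (ENSMUSG00000041261) runs from 8143362 to 8239041 on the minus strand, with 3853 exonic bases in 9 merged exons. No other counted feature shared exonic bases with Calb1 or Car8.

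The coding sequences of the members differ in their matches to an EF-hand pattern. The reading frames of Calb1, Necab1 and Car8 in GENCODE M21 transcripts hold 261, 352 and 291 codons, and were searched for the PROSITE EF-hand pattern after translation. It matched 4 loops in Calb1, 1 in Necab1 and 0 in Car8. A match to the pattern is a description of the sequence and no measure of calcium binding. The coding bases of each 12-codon loop are printed from 5′ to 3′, with capitals at loop codons 1, 3, 5 and 12, which encode side chains that usually hold the ion.
Calb1 loop 1: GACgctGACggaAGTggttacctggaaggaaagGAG
Calb1 loop 2: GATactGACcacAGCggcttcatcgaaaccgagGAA
Calb1 loop 3: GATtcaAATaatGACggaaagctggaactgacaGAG
Calb1 loop 4: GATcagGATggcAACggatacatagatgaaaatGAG
Necab1 loop 1: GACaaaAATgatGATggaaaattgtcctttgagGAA
Calb1 loops 2 and 3 each lie within 1 exon, at chr4:15895644-15895679 and chr4:15900781-15900816 (GRCm38, plus strand), and the other 3 loops cross an intron. Over 252 aligned codons, the translated frames of Calb1 and Necab1 were 23.4% identical.

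Car8 was set against Car2, the classical carbonic anhydrase, with which its translated frame was 43.7% identical over 254 aligned codons. In Car2, 3 histidines hold the catalytic zinc, and codons 94 and 96 encode a pair of them. The stretch over these is shown in both genes, with codons 94 and 96 of Car2, and the Car8 codons aligned with them, in capitals.
Car2 codons 90 to 99: ttgatccagtttCACtttCACtggggctca
Car8 codons 113 to 122: ctgtatgaagttAGAtttCACtggggaaga
At Car8 codon 117, aligned with Car2 codon 94, no histidine codon is present, and Car8 keeps one at the other 2 of the 3 positions.

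Each member had its own pattern over the 6 libraries. Necab1 was nearly absent from controls 1 and 2, Car8 was lower there, and Calb1 was lower in control 2 only. Levels are given in CPM, that is, read pairs of a gene per 1000000 counted, with 95% Poisson intervals that cover counting error only.

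Calb1 stood at 249 CPM in control 1 (95% interval 234 to 265), 78.5 in control 2 (70.0 to 87.8) and 231 in control 3 (213 to 250). The injury libraries held 216, 252 and 234 CPM. Control 2 was the lowest of all 6, and the other 5 lay so close that the counting intervals of neighbours in rank overlapped. One feature, named Ltbp3, took 21.8% and 17.2% of the counts of controls 1 and 2, and with the 10 most abundant features taken out of each total, Calb1 in control 1 was 362 CPM, above the 249 to 287 CPM of the injury libraries. The control mean was 186 ± 93.7 CPM and the injury mean 234 ± 18.01 CPM (SD, n = 3 each), and the groups overlapped.

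Necab1 had 0 counts in control 1, which allows up to 0.770 CPM by the limit of 3 counts, and 3 counts (0.765 CPM) in control 2. Control 3 held 297 CPM, and injury 1, 2 and 3 held 279, 291 and 253 CPM. Control 3 was thus the highest of all 6 libraries and controls 1 and 2 the lowest. The control mean was 99.2 ± 171 CPM and the injury mean 275 ± 19.4 CPM (SD, n = 3 each), a control mean that matches no single control library.

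Car8 rested on few counts, from 22 in control 1 to 126 in control 3. Its level was 5.65 CPM in control 1 (95% interval 3.54 to 8.55), 18.6 in control 2 (14.6 to 23.4) and 48.2 in control 3 (40.1 to 57.4), against 36.1, 41.1 and 45.3 CPM in injury 1, 2 and 3. Control 1 was lowest, control 2 next, and the counting intervals of the other 4 all overlapped. The control mean was 24.1 ± 21.8 CPM and the injury mean 40.8 ± 4.57 CPM (SD, n = 3 each).

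**Figure D1:**
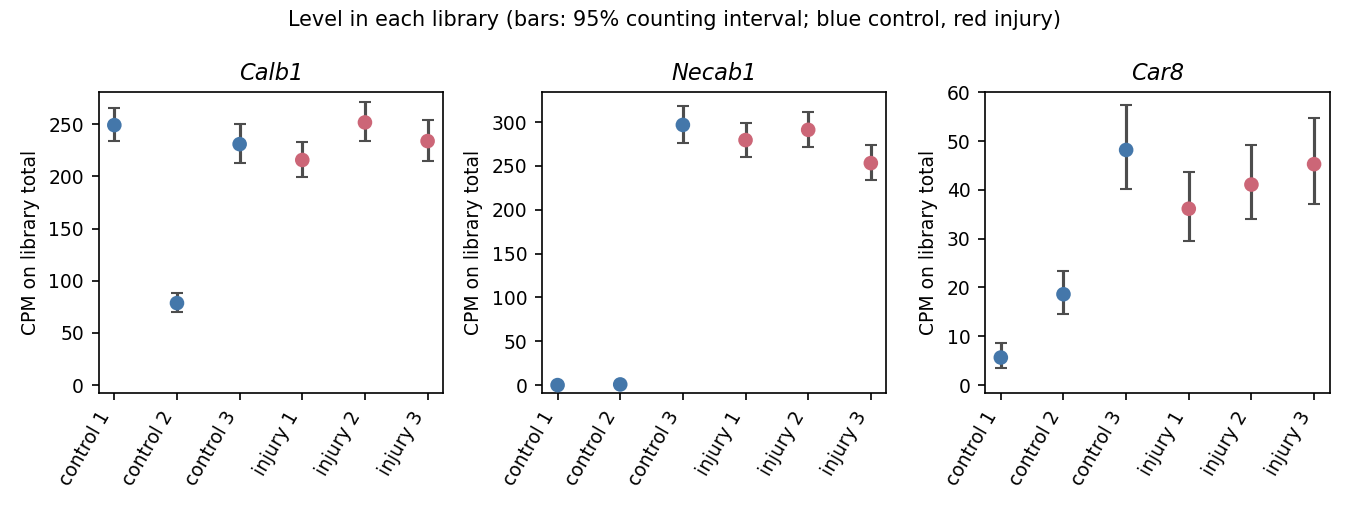
CPM of Calb1, Necab1 and Car8 (vertical axes, linear, each with its own scale) in each of the 6 libraries (horizontal axis), with points in blue for control and red for injury and bars for the 95% Poisson counting interval. Controls 1 and 2 are at or near 0 for Necab1 and lowest for Car8, and for Calb1 only control 2, at 78.5 CPM, stands below the rest.

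Per kilobase of exon, which allows levels to be set between genes, Necab1 and Calb1 were alike after injury, at 52.4 ± 3.71 and 48.3 ± 3.72 CPM per kb (SD, n = 3), and Car8 was lower at 10.6 ± 1.19 CPM per kb. In control 3 the same order held, with 56.7, 47.7 and 12.5 CPM per kb. Controls 1 and 2 had another order, Calb1 above Car8 above Necab1, with Calb1 at 51.4 and 16.2, Car8 at 1.47 and 4.83 and Necab1 at 0 and 0.146 CPM per kb.

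The comparison of injury with control asks whether the level of these genes changed with spinal cord injury. None of the 3 passed the test over all 6 libraries. The log2 fold change was 0.39 for Calb1 (SE 0.58, 95% interval -0.99 to 1.78, adjusted p 0.640), 1.62 for Necab1 (SE 2.10, -3.42 to 6.66, adjusted p 0.592) and 0.96 for Car8 (SE 0.70, -0.72 to 2.65, adjusted p 0.368), by edgeR's quasi-likelihood test with Benjamini-Hochberg adjustment over all features. The same test called 0% of the 12646 features (0 called; 3245 had an unadjusted p under 0.05, limma-voom called 0 and DESeq2 1503). The control and injury libraries did not overlap in 39.2% of the tested features, and overlapped for all 3 members.

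With control 3 left out, Necab1 and Car8 were higher after injury than in controls 1 and 2, while Calb1 did not pass. Necab1 had a log2 fold change of 9.86 (SE 0.62, edgeR adjusted p 1.33e-04). Pooled over libraries on their total counts, without the scaling of the test, its ratio was 719 with a 95% counting interval of 246 to 3488, since it rests on 3 counts in controls 1 and 2. Car8 had a log2 fold change of 2.35 (SE 0.41, edgeR adjusted p 0.00290). Its pooled ratio on total counts was 3.34 (95% counting interval 2.65 to 4.24), smaller than the fold change of the scaled test. Calb1 had a log2 fold change of 0.84 (SE 0.59, 95% interval -0.58 to 2.25, edgeR adjusted p 0.247). In this fit 66.8% of the 15320 features tested were called (30.2% higher and 36.6% lower after injury), so that a call here is common. Among the 518 name-stable features tested, the kind the members belong to, 277 were higher and 99 lower. In CPM, injury lay above controls 1 and 2 without overlap in 29.4% of features, Necab1 and Car8 among them.

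With controls 1 and 2 left out, control 3 alone stood against the 3 injury libraries, its spread assumed to be like theirs. The log2 fold changes were 0.14 for Calb1 (95% interval -0.21 to 0.49, edgeR adjusted p 0.628), 0.0088 for Necab1 (-0.32 to 0.34, adjusted p 0.979) and -0.12 for Car8 (-0.57 to 0.33, adjusted p 0.757). No member passed, and 6.78% of 13857 features did (1.05% higher and 5.72% lower after injury). For Necab1 and Car8 the upper ends of these intervals lay below their log2 fold changes from controls 1 and 2.

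Calb1 depended on single controls. Without control 2 its log2 fold change was -0.061 (edgeR adjusted p 0.908), and without control 1 it was 0.80 (adjusted p 0.439). Limma-voom with sample quality weights, a test that gives unlike libraries less weight, called all 3 genes higher after injury over all 6 libraries. Its log2 fold changes were 1.16, 8.62 and 1.78 for Calb1, Necab1 and Car8 (adjusted p 0.0355, 3.34e-04 and 0.0105). But it called 55.7% of all features too, 27.1% higher and 28.6% lower. Among 461 name-stable features, it called 229 higher and 61 lower.

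**Figure D2:**
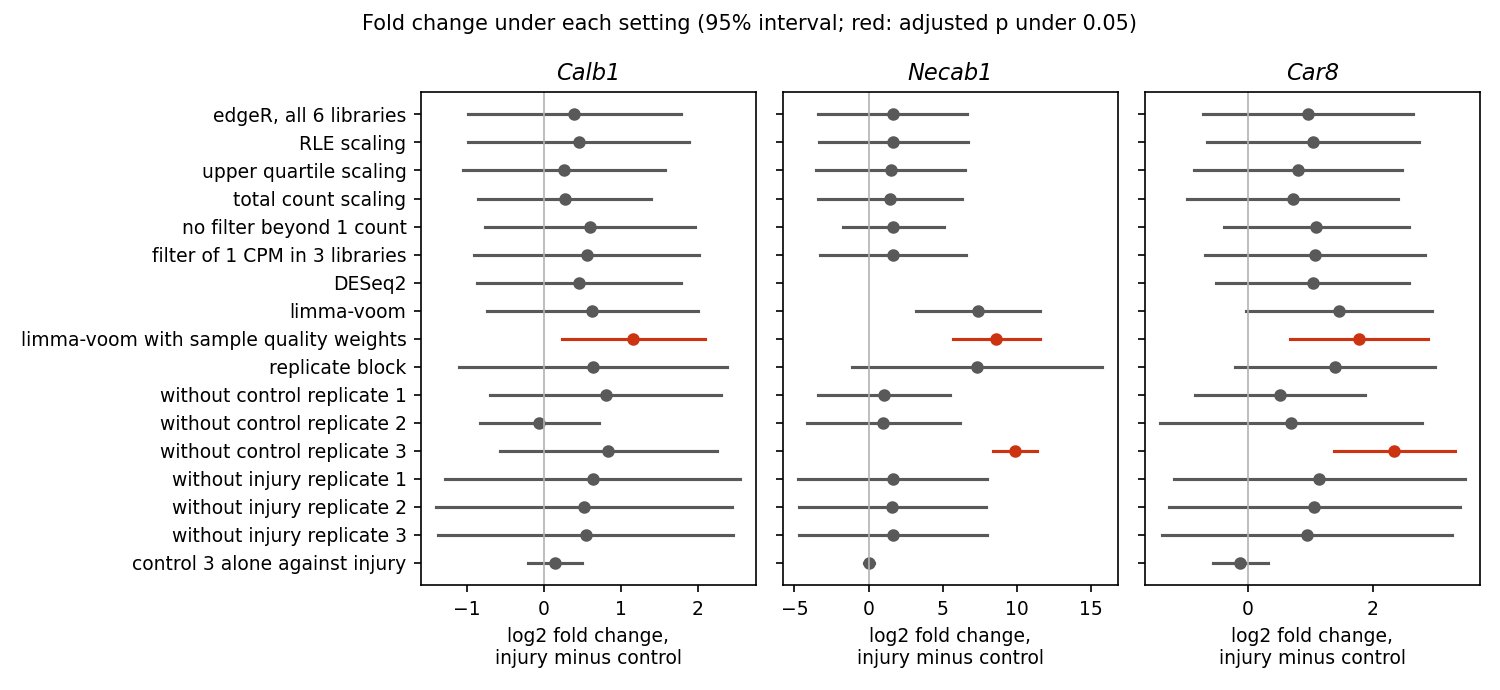
Log2 fold change of injury minus control (horizontal axis) for each gene under each test or set of libraries (vertical axis), with 95% intervals. Red marks an adjusted p under 0.05, reached by all 3 genes in limma-voom with sample quality weights and by Necab1 and Car8 without control replicate 3, and with control 3 alone the 3 values run from -0.12 to 0.14. DESeq2 gave no p for Necab1, which is not drawn there.

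Controls 1 and 2 also differed from each other, and in opposite directions for Calb1 and Car8. Calb1 was 3.17-fold higher in control 1 than in control 2 (95% counting interval 2.79 to 3.62), a ratio above that of 97.8% of the tested features. Car8 stood at 0.303 of its control 2 level in control 1 (0.179 to 0.494), above 19.4% of features. These ratios compare 2 libraries, not conditions. On the per-kilobase scale, Calb1 exceeded Car8 35.1-fold in control 1 but only 3.35-fold in control 2, against 3.81-fold in control 3 and 4.75, 4.87 and 4.11-fold in injury 1, 2 and 3. In this ratio control 2 lay near the injury libraries and control 1 alone stood apart.

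Ratios between members were tested over the 3 control and 3 injury libraries with a two-sided exact permutation test, which cannot go below p = 0.1 at this size. The log2 ratio of Calb1 to Necab1 per kilobase, with 0.5 added to each count, was 11.04, 6.57 and -0.25 in controls 1, 2 and 3 and between -0.26 and -0.0022 after injury (exact permutation p 0.3, 0.45 after Benjamini-Hochberg adjustment over the 3 ratios). For Necab1 to Car8 the mean was 2.30 ± 0.24 after injury and -2.86 ± 4.40 in control (SD, n = 3, exact permutation p 0.2, adjusted 0.45). For Calb1 to Car8 it was 2.18 ± 0.13 after injury and 2.92 ± 1.89 in control (SD, n = 3, exact permutation p 1, adjusted 1). No ratio passed, and in each the 3 controls spread more widely than the injury libraries.

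Marker genes of cell types also differed between the libraries. Few markers could be read by name, so each was read from the features whose bases shared with exons lay at least 90% on it, a reading chosen after seeing the data that covers only part of a gene. Such features can also hold many bases off the gene. The share of their bases on the marker's exons ran from 1.22% (Nefm) to 100% (Mag). It was 13.2% for Map2, which gave 2708 CPM of the neuron sum in control 3. Of 16 neuron markers 6 could be read, and summed to 24.4 and 35.95 CPM in controls 1 and 2, with 3 and 2 of them at 0, and to 3434 to 4203 CPM in the other 4 libraries. Gad1, among the 6, differed less, with 6.93 and 12.7 CPM in controls 1 and 2 against 18.3 to 27.1 CPM. Of 9 oligodendrocyte markers 5 could be read, at 13.3 and 46.9 CPM against 2737 to 3305. Necab1 and Car8 were lower, as were these sums, in controls 1 and 2, and the part of cell make-up in the result was not tested. In such bulk RNA, fewer cells of a type and less RNA per cell cannot be told apart.

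Kidney markers ran the other way. Of 10 proximal tubule markers 5 could be read, summing to 3949 and 1948 CPM in controls 1 and 2 and to 2.93 to 8.60 CPM elsewhere, with 3 of the 5 at 0 in each of these 4 libraries. Of 10 collecting duct markers 6 could be read, at 247 and 267 CPM against 3.82 to 23.1. By edgeR, 4 of the 6 were called lower after injury than in controls 1 and 2, beside 31.7% of the 5376 genes tested. The other 2 were Slc26a7, with 1.03 and 7.14 CPM against 1.53 to 5.45, and Slc4a1, with 0.770 and 12.7 CPM against 0.351 to 15.9. For the distal nephron, where Calb1 is known, 3 of 12 markers could be read. Trpm6, a magnesium channel of the distal convoluted tubule, stood at 215 and 121 CPM in controls 1 and 2 and at 2.10 CPM or below in the other 4. Trpv5, the calcium entry channel of the distal convoluted and connecting tubule, stood at 69.6 and 282 CPM against 1.03 CPM or below. Kcnj10, a potassium channel that glia also express, had 24.6 and 52.8 CPM against 1203 to 1627 CPM, so that the sum over the 3 was 309 and 456 CPM against 1204 to 1629. Between controls 1 and 2, the ratio was 1.78 for Trpm6 (95% counting interval 1.59 to 2.0) and 0.246 for Trpv5 (0.215 to 0.282), beside 3.17 for Calb1. So Trpm6 shared the direction of Calb1 between these 2 libraries, and Trpv5 did not. Markers of other tubule segments also went both ways. The ratio was 6.79 for Slc34a1, 1.72 for Lrp2 and 2.90 for Slc26a4. It was 0.722 for Slc13a1, 0.645 for Atp6v0d2, 0.541 for Scnn1g and 0.951 for Aqp3. The Trpm6 and Trpv5 values rest on features with 7.93% (Trpm6) and 10.2% (Trpv5) of their exonic bases on the gene's exons.

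Purkinje cell markers could not be judged, since 2 of 7 could be read, Cbln1 at 0 in all 6 libraries and Itpr1 from features covering 0.884% of its exons. Of 7 astrocyte markers 2 could be read, at 184 and 50.5 CPM in controls 1 and 2 and 34.1 to 47.0 CPM in the others, but Aldh1l1 was higher in controls 1 and 2 (181 and 42.1 CPM against 2.06 to 6.71) and Slc1a3 lower (3.08 and 8.41 CPM against 28.8 to 40.9). Leukocyte markers (3 of 7 read) stood at 42.9 and 367 CPM against 27.2 to 60.6, so that control 2 was highest. Cartilage and disc markers (4 of 9 read), which belong to the labelled disc, stood at 15.9 and 13.3 CPM against 53.7 to 81.9. Among them, Col11a2 had 1.03 and 4.08 CPM against 39.0 to 59.5, and Acan 0 in both against 2.10 to 11.5. Cdh2 overlapped, with 14.9 and 9.18 CPM against 11.6 to 26.8, and Krt19 had 0 counts. Of 6 markers of absorptive gut cells only Vil1, also a gene of the proximal tubule, could be read, at 147 and 90.01 CPM against 0.419 CPM or below.

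**Figure D3:**
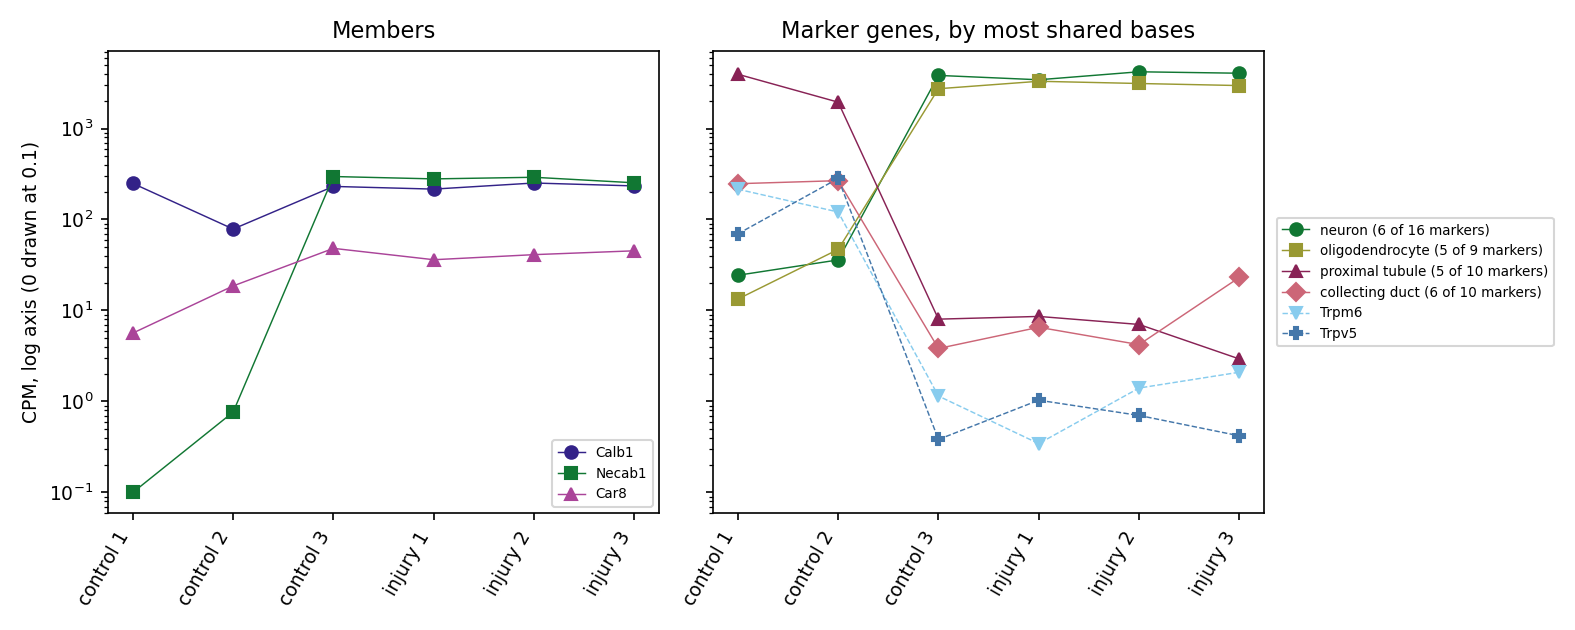
CPM on a log axis in each library for the 3 genes (left) and for the summed markers of 4 cell types and the distal nephron genes Trpm6 and Trpv5 (right), with a count of 0 drawn at 0.1 and lines joining the values of 1 gene or list. Neuron and oligodendrocyte sums are low in controls 1 and 2 like Necab1, tubule markers are high there, and Calb1 is at 249 CPM in control 1 and 216 to 252 CPM in the injury libraries.

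The nearest tested name-stable genes on chromosome 4, which lay 9.18 to 1689 kb from the members, did not share one pattern with them. On either side of Calb1 lie Decr1, a mitochondrial enzyme of fatty acid breakdown 9.18 kb away, and Nbn, a DNA repair gene 49.9 kb away, on one side, and the predicted gene Gm11855 and Tmem64 on the other. Decr1 had 300 and 159 CPM in controls 1 and 2, 130 in control 3 and 151, 160 and 158 CPM after injury, so that control 1 was highest. Nbn ranged from 84.9 CPM in control 2 to 136 CPM in injury 2. Beside Necab1, Pip4p2, a lipid phosphatase gene, had 100.1 and 82.1 CPM in controls 1 and 2 and 176 to 210 CPM in the other 4, and Otud6b, a deubiquitinase gene, 109 and 99.96 CPM against 460 to 539 CPM. Tmem64 had 98.3 and 61.7 CPM against 152 to 213 CPM. On one side of Car8, Rab2a, a small GTPase of the Golgi 297 kb away, had 243 and 150 CPM against 1080 to 1350 CPM. Chd7, a chromatin remodeller 451 kb away, had 488 and 324 CPM against 214 to 261 CPM. On the other side lay Tox and Nsmaf, 1152 and 1689 kb away. Tox had its lowest value in control 2 (21.2 CPM), and Nsmaf stood between 236 and 362 CPM in all 6. Without control 3, Pip4p2, Otud6b, Tmem64, Gm11855 and Rab2a passed (edgeR adjusted p 0.00483, 7.00e-04, 0.00877, 0.00301 and 0.00177), all higher after injury. That fit called 30.2% of all features higher, and 277 of the 518 name-stable features tested. With all 6 libraries none of the 10 neighbours passed (edgeR adjusted p 0.212 or above).

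Genes with the pattern most like each member were sought among 390 name-stable tested genes, predicted models left out, by the root mean square difference of log2 CPM profiles centred on their mean over the 6 libraries. This is a description over 6 libraries that share their controls. Calb1 was nearest to Tmem106b (difference 0.18), Tox (0.20), Ubap1 (0.22), Ttpa (0.25) and Wasl (0.27). All 5 had their lowest value in control 2, such as Tmem106b, a lysosomal membrane protein gene, with 514 CPM there and 1082 to 1489 CPM in the other 5. Ttpa, the transfer protein for vitamin E, had 11.98 CPM in control 2 and 40.6 to 61.1 CPM in the other 5. Necab1 was nearest to Dync1i1 (0.29), a dynein subunit gene of neurons, and then to Clvs1 (0.35), Pou3f2 (0.38), Lingo2 (0.46) and Zkscan16 (0.59). Dync1i1 had 2.05 and 2.80 CPM in controls 1 and 2 and 710 to 850 CPM in the others. Clvs1 and Pou3f2 had 0 counts in controls 1 and 2. Against this pair they were at least 465-fold and 576-fold higher after injury, with a floor of 3 counts summed over the pair. In control 3, Clvs1 had 176 CPM against 168 to 194 CPM after injury, and Pou3f2 had 187 against 212 to 241 CPM. Car8 was nearest to Msantd3 (0.13), Ica1 (0.20), Casd1 (0.21) and Fam110b (0.21). Msantd3 followed it almost library by library, with 5.65, 18.9, 48.9, 43.0, 50.9 and 54.1 CPM in controls 1, 2 and 3 and injury 1, 2 and 3. Between members the differences were larger, 1.12 for Calb1 and Car8, 2.94 for Necab1 and Car8 and 3.61 for Calb1 and Necab1.

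**Figure D4:**
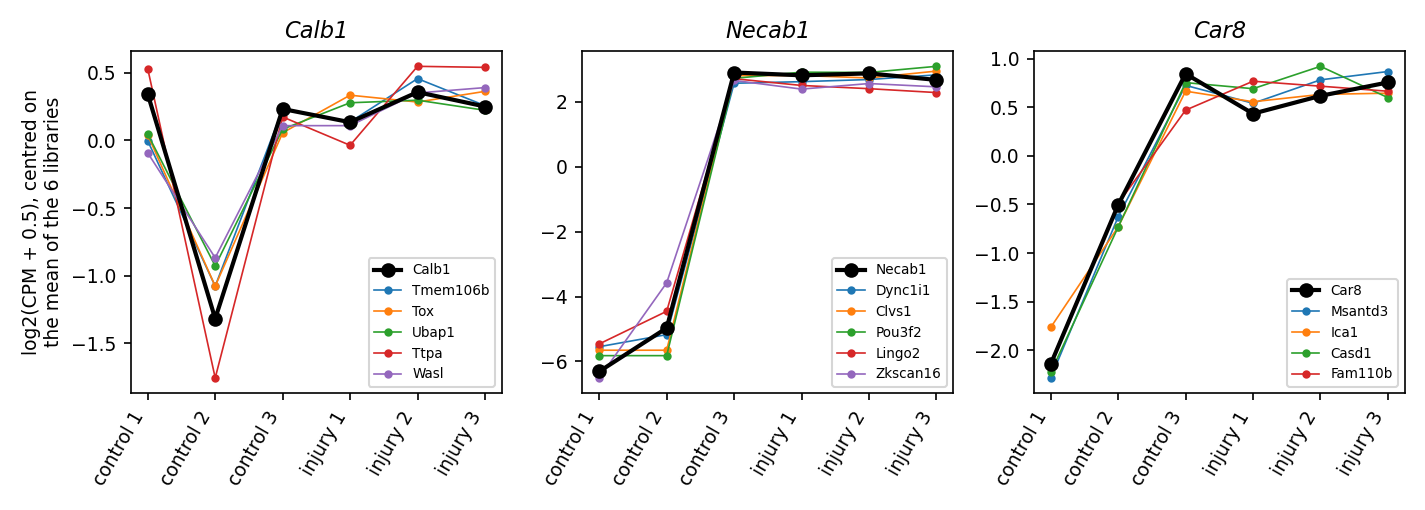
Log2(CPM + 0.5) of each member (black) and of the 4 or 5 genes named as nearest to it in profile (colours), centred on the mean of the 6 libraries (vertical axis), by library (horizontal axis), with lines joining the values of 1 gene. Profiles like that of Calb1 dip in control 2 alone, those like Necab1 are low in both controls 1 and 2, and those like Car8 step up from control 1 to control 2 to the rest.

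Of 65 other genes of calcium handling and the carbonic anhydrase family, none passed in edgeR with all 6 libraries (0% of 4874 genes called). Read by the gene holding at least 90% of a feature's own exonic bases, 1 was tested, Atp2b4, a plasma membrane calcium pump (log2 fold change 0.57, edgeR adjusted p 0.530). Without control 3 the same reading tested 2 and called both, Atp2b4 higher (log2 fold change 1.46, edgeR adjusted p 0.0262) and Car9 lower (-3.66, adjusted p 0.00178), where 59.9% of 848 genes were called, 28.5% higher and 31.4% lower. Read by most shared bases, 19 were tested, with a median log2 fold change of 0.80 against -0.03 over all genes. By edgeR, 2 of the 19 had an unadjusted p under 0.05, beside 957 of all 4874 genes. Of these 19, 11 were called higher and 5 lower by limma-voom with sample quality weights, which called 47.1% of all genes (23.7% higher and 23.3% lower), and 1 was called lower by DESeq2, which called 8.78% of them (0.041% higher and 8.74% lower). Without control 3, 22 were tested, 11 higher and 6 lower after injury, where 28.1% of 5376 genes were higher and 31.7% lower. The median of these 22 was 1.41, against -0.08 over all genes.

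EF-hand buffers and sensors, the family of Calb1 and Necab1, held 7 tested genes in that fit. Of these, 5 were higher and 0 lower after injury, beside 28.1% and 31.7% of all genes. Ncald, a neuronal calcium sensor read from 75.8% of its exons, stood at 12.3 CPM in control 1 and 59.7 CPM in control 2, against 575 to 661 CPM elsewhere (log2 fold change 4.28, edgeR adjusted p 0.00227). Hpcal4, another neuronal sensor, had 28.7 and 24.5 CPM against 122 to 154 CPM, from a feature with 39.4% of its bases on Hpcal4 exons. Kcnip1, a potassium channel partner, had 0.257 and 1.78 CPM against 56.1 to 66.9 CPM, though from a feature with 1.73% of its bases on Kcnip1 exons. Necab3, the relative of Necab1, had 0.257 and 0.765 CPM against 23.3 to 29.1 CPM, from features covering 7.50% of its exons.

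Of 4 carbonic anhydrase family genes tested, 1 was higher, like Car8, and 3 were lower after injury than in controls 1 and 2, beside 28.1% and 31.7% of all genes. Car9, a membrane enzyme the only one of the 4 that is name-stable, had 9.496 and 9.18 CPM in controls 1 and 2 and 0.382 to 1.38 CPM in the other 4 (log2 fold change -3.07, edgeR adjusted p 0.00273). Car12 had 51.8 and 89.8 CPM against 5.03 to 10.3 CPM, from a feature with 23.1% of its bases on Car12 exons. Car10, which like Car8 encodes a related protein without the enzyme activity, was higher, with 0 and 0.255 CPM in controls 1 and 2, 26.0 in control 3 and 7.57, 8.78 and 7.96 CPM after injury. It was the only one of the 65 to pass between control 3 and the injury libraries, as lower after injury (log2 fold change -1.62, edgeR adjusted p 0.0433, 0.549% of 5100 genes called), from a feature with 12.3% of its bases on Car10 exons.

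Inositol trisphosphate and ryanodine receptors, the release channels, gave 1 higher and 2 lower of 5 tested, beside 28.1% and 31.7% of all genes. Ryr2, a ryanodine receptor, had 6.67 and 13.0 CPM against 391 to 480 CPM, read from 6.26% of its exons. Itpr1, the receptor that Car8 binds, was lower after injury, with 93.9 and 78.8 CPM against 26.8 to 31.0 CPM (log2 fold change -1.53, edgeR adjusted p 0.00637), but this reading covers 0.884% of its exons. Itpr2 was lower too, with 36.2 and 123 CPM against 24.2 to 34.8 CPM (log2 fold change -1.41, edgeR adjusted p 0.0228), read from 3.67% of its exons. Calcium pumps and exchangers gave 4 higher and 1 lower of 6 tested, beside the same shares of all genes. Atp2b4 had 24.1 and 77.8 CPM in controls 1 and 2, 225 in control 3 and 218, 201 and 184 CPM after injury. Atp2b3, a calcium pump of neurons, was without a count in controls 1 and 2. It had 171 CPM in control 3 and 161 to 194 CPM after injury. The injury level was at least 453-fold above controls 1 and 2, on the same floor as Clvs1 and Pou3f2. Control 3 lay within the range of the injury libraries. Atp2b3 was read from features covering 11.6% of its exons, with 33.6% of their bases on the gene. Trpv5, described above, was the lower one.

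**Figure D5:**
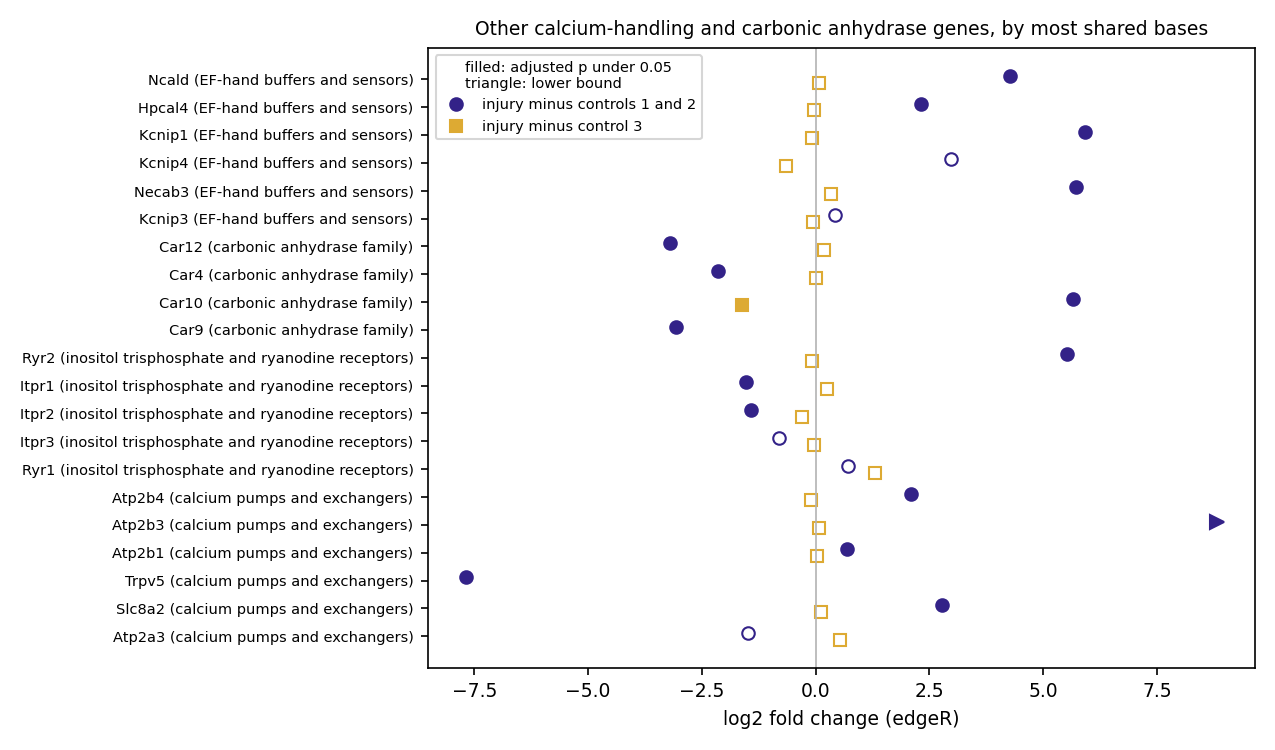
Log2 fold change of injury minus controls 1 and 2 (circles) and of injury minus control 3 (squares) for 21 genes of the 4 lists (vertical axis), by edgeR, filled where the adjusted p is under 0.05 and with a triangle at the lower bound for Atp2b3. Against controls 1 and 2, filled circles lie on either side of 0, and against control 3 only Car10, at -1.62, is filled.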

How the data were processed

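Counts per gene from RNA sequencing were used for 6 libraries, 3 control and 3 injury, grouped by the sample group label. Per the file headers, the authors' deposited counts were made with featureCounts 2.0.1, which took read pairs only if both ends mapped and assigned them to exons grouped by gene name, ignoring strand and skipping multi-mapping reads. Aligner, build and annotation release of these counts are not given in the sources used here; the submitters' processing notes name Bowtie 0.12.2, mm8 and mm9. The merged table repeats the counts of 53509 of the 53546 features (0 cells differ). Its deposited columns named FPKM equal counts per kilobase divided by the square of the library total, so they are not FPKM and were not used.

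Exons were set against GENCODE M21 (GRCm38) with bedtools 2.31.1. The test was edgeR 4.0.16 (R 4.3.3) with TMM, filterByExpr, a quasi-likelihood F test and Benjamini-Hochberg adjustment at 0.05, tested on simulated data. SE came from the F statistic. Gene-level readings, by the gene under at least 90% of a feature's exonic bases or, chosen after seeing the data, of its bases shared with exons, used summed counts with all counts as library size. Alternatives were other scalings and filters, DESeq2 1.42.0, limma-voom (limma 3.58.1) with and without quality weights, a replicate block, and left-out libraries. Named genes were up to 4 members per list by mean CPM, 2 tested neighbours per side and 5 like profiles per gene (in the added reading too); Necab3 and Cbln1 fall outside this rule and were chosen after their values were seen. The members and lists were chosen with earlier results of these data known. Results of 2 genes that this rule would name are not reported here.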

Additional observations from a re-analysis of the deposited data

How the results depend on the processing

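The number of features called was 0 with all 6 libraries in edgeR, 1503 with DESeq2, 7042 with limma-voom and sample quality weights, 939 with control 3 alone against injury, and between 0 and 10231 with 1 library left out, the highest without control 3. The log2 fold change was 1.16 for Calb1, 8.62 for Necab1 and 1.78 for Car8 with sample quality weights, each past the threshold. With 1 library left out it ranged from -0.061 (without control 2, a reversal) to 0.84 for Calb1, from 1.00 to 9.86 for Necab1 and from 0.51 to 2.35 for Car8, the highest each time without control 3. For Car8 it reversed to -0.12 with control 3 alone. The cause was not tested. RLE, upper quartile and total count scaling, both filters, DESeq2 for Calb1 and Car8, limma-voom and the replicate block kept the direction and made no call, though limma-voom put Necab1 at 7.40 (95% interval 3.22 to 11.58, adjusted p 0.157). DESeq2 gave Necab1 no p. These scalings moved the median of all features between -0.30 and 0.04, with all 3 members above it. The replicate block gave log2 fold changes of 0.63 (Calb1), 7.32 (Necab1) and 1.39 (Car8), with adjusted p of 0.538, 0.233 and 0.231. Deviations of same-numbered libraries from their group means correlated at 0.065, -0.14 and 0.059 across features, and control 2 correlated best with injury 1 (0.24). The control deviations hold the difference of controls 1 and 2 from control 3, so these values cannot decide whether the numbers pair libraries. The calcium and carbonic anhydrase genes read by overlying gene gave 0 calls, and between 0 and 2 with 1 library left out, the 2 without control 3. Read by most shared bases, 0 were called in edgeR, 1 with DESeq2 and 16 with sample quality weights. Depth limits Necab1 in controls 1 and 2, with 0 and 3 counts, and Car8 there, with 22 and 73.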
